A study of Mus musculus with 16 samples.

Results

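The 36 genes described here encode lysosomal enzymes, proteins of the lysosomal membrane and transcriptional regulators of lysosomal genes. They were taken from a list of names, and are 36 of the 18580 genes with at least 1 estimated count in any library. The libraries came from cells sorted from mouse brains 2 months after bilateral injection of α-syn into the striatum (2 months p.i.). The mice were 12 weeks old at surgery, either CD163KO mice, which carry the whole-body deletion CD163tm1.1(KOMP)Vlcg, or their WT littermates on the C57BL/6N background, and both sexes were used. MONO groups received α-syn monomers and PFF groups received pre-formed fibrils of murine α-syn, so every group had surgery and an α-syn injection. Macrophages were sorted as CD11b+ cells with high CD45, a gate that also holds infiltrated macrophages, neutrophils and NK cells besides macrophages of the brain borders. Microglia were CD11b+ cells with low or intermediate CD45. Population, sex, genotype and treatment gave 16 conditions, and a single table was available for each, so p-values come from the spread between conditions and not from repeated samples of a condition. The paper's text does not say whether a table holds 1 library or the pooled reads of the triplicates that were sequenced. The study excluded the male CD163KO MONO libraries. They were also left out of the tests here, which used 14 libraries, 7 of each population.

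Lysosomes degrade proteins, glycans and lipids that reach them by endocytosis, phagocytosis and autophagy, and in phagocytes of the brain they receive debris and protein aggregates. Most of their hydrolases are soluble glycoproteins that work at acid pH, and inherited loss of many of the enzymes listed here causes a storage disease. The membrane is lined by heavily glycosylated proteins such as LAMP1 and LAMP2, and transcription factors of the MiT/TFE family (TFEB, TFE3 and MITF) bind an E-box-like element, the CLEAR element, in the promoters of many lysosomal genes.

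The libraries were first compared with their labels. Depth ranged from 12170686 to 21433841 estimated counts over macrophage libraries and from 8648751 to 18768238 over microglia libraries. Cd163, the deleted gene, had between 748 and 5275 counts in WT macrophages and at most 1 count in CD163KO macrophages. In male microglia Cd163 did not separate the genotypes, with 0 and 1 counts in WT and 10 and 5 counts in CD163KO. Y-linked genes, which should be silent in females, summed to 14.3 FPKM in the female CD163KO MONO microglia library against 7.8 to 71.2 FPKM in the 4 male microglia libraries and at most 0.05 FPKM in the other 7 female libraries. This library was therefore at a level found in males and goes against its label for sex. It was kept in the group of its label, and the edgeR tests of populations, treatment, genotype and sex are also given without it. The counts over matched pairs, with DESeq2 and with library size alone are given with it only. Homeostatic microglia markers summed to between 17736 and 43448 FPKM in the 7 microglia libraries and between 956 and 1779 FPKM in the 7 macrophage libraries. Markers of border-associated macrophages summed to between 1956 and 5330 FPKM in macrophages and between 29.3 and 171 FPKM in microglia. Neutrophil markers summed to between 22119 and 134487 FPKM in macrophages and between 1167 and 2850 FPKM in microglia. In such bulk samples fewer cells of a type and less RNA per cell cannot be told apart. The libraries also fell into 2 classes of composition that crossed the populations, on either side of a limit of 25% that was set after seeing the data. The 10 most abundant transcripts took between 37.95% and 60.44% of the counts in 6 macrophage libraries and between 45.99% and 57.15% in the male WT PFF and male CD163KO MONO microglia libraries. They took between 13.42% and 16.13% in the other 6 microglia libraries, and 15.39% and 15.37% in the male WT PFF and male CD163KO MONO macrophage libraries. These classes are called skewed and even.

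The promoters of some members hold the core of the CLEAR element. RefSeq windows from 250 bases before to 50 bases after the transcription start (GRCm38.p6, a patch release of the mm10 assembly) were found for 34 of the 36 members. The core CACGTG, an E-box that reads the same on both strands, was present in 9 of these 34 genes (26.5%), against 8.09% of the 27025 genes with a window. These were Lamp1, Cln3, Mcoln1, Glb1, Gaa, Gla, Naglu, Arsa and Sgsh. The longer palindrome TCACGTGA was found in Cln3, Gla and Mcoln1 (8.82% of the 34) and in 1.12% of the 27025 genes, and the same letters with a further G before and C after were found in Cln3 alone among the members (2.94%) and in 0.370% of genes. A match describes the letters in the window and not a bound site. Lamp1 is shown because it held 4 cores within 75 bases, and Cln3 because it held the longest match. Naglu, Gaa and Glb1 are shown because their expression is described below. Capitals mark the motif, and each sequence is written along the strand of its gene.
Lamp1, chr8:13159086-13159160, plus strand: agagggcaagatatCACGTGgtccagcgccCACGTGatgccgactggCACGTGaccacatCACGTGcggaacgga
Cln3, chr7:126583340-126583369, minus strand: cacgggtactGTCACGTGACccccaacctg
Naglu, chr11:101070009-101070038, plus strand: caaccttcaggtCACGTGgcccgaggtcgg
Gaa, chr11:119267811-119267840, plus strand: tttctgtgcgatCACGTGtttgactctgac
Glb1, chr9:114401018-114401047, plus strand: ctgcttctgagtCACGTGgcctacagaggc
All of these lie upstream of the transcription start. The first base of the motif shown lay 121 bases before the start in Cln3, 73 in Naglu, 140 in Gaa and 48 in Glb1, and between 61 and 15 bases before it in Lamp1.

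Levels are given as FPKM, which are scaled to transcript length and library size and can therefore be compared between genes. Members summed to between 0.495% and 0.754% of all FPKM in the 7 macrophage libraries (median 0.586%) and to between 0.765% and 1.54% in the 7 microglia libraries (median 1.41%). The groups did not overlap, but the highest macrophage value and the lowest microglia value, both from male WT PFF mice, lay side by side. Without Lamp1 the groups overlapped, at 0.214% to 0.711% in macrophages and 0.489% to 1.43% in microglia. In the male WT PFF pair the share without Lamp1 was 0.711% in macrophages and 0.489% in microglia, so the order was reversed there. Lamp1 alone made up a median of 43.7% of the members' FPKM in macrophages and 7.16% in microglia. Between 29 and 36 members reached 1 FPKM in a macrophage library, and between 32 and 35 did in a microglia library. By their medians, the most abundant members in macrophages were Lamp1 (1953 FPKM), Cd63 (542 FPKM) and Laptm5 (498 FPKM). In microglia they were Laptm5 (1883 FPKM), Grn (898 FPKM) and Hexa (805 FPKM). The macrophage ranges of Lamp1 and Cd63 overlapped, as did those of Cd63 and Laptm5, and so did the microglia ranges of Laptm5 and Grn and of Grn and Hexa, so none of these neighbours is separated beyond its spread. Ids (median 0.47 FPKM) and Mitf (0.73 FPKM) had the lowest medians in macrophages, with ranges that overlapped, and Acp5 had the lowest in microglia (0 FPKM).

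**Figure D1:**
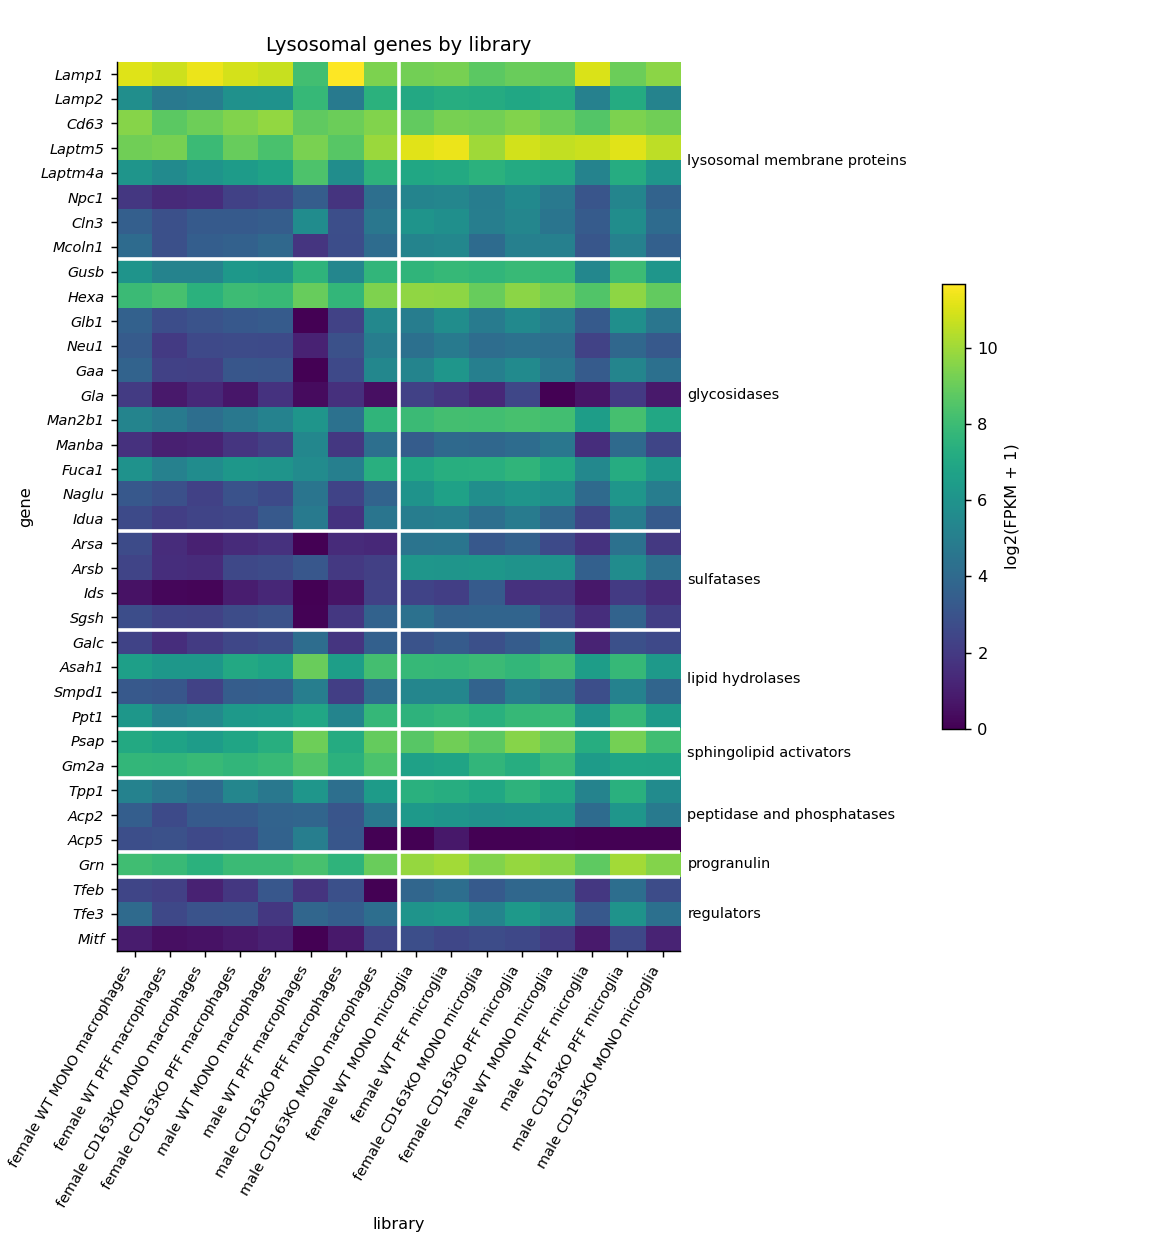
Levels of the 36 members in all 16 libraries, as colour on the log2(FPKM + 1) scale, with members grouped by role in rows and libraries by population in columns. The male WT PFF and male CD163KO MONO columns stand apart from the other libraries of their population, and Lamp1 is bright in the macrophage columns apart from these.

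Microglia were compared with macrophages over 7 matched pairs of libraries of the same sex, genotype and treatment. With TMM scaling, which assumes that most genes do not differ, 7 members were higher in microglia, 5 were lower and 24 did not pass the test (edgeR's quasi-likelihood test, adjusted p at or below 0.05 over 13704 genes). The higher members were Arsb, Npc1, Man2b1, Naglu, Acp2, Tfe3 and Tpp1, and the lower ones were Acp5, Lamp1, Gm2a, Cd63 and Laptm4a. Of all genes, 6.64% were higher and 11.6% lower (18.2% in all), and 10 members passed with a difference of at least 1 on the log2 scale, as did 16.9% of all genes. The median log2 difference was 0.23 over the members and 0.37 over all genes. DESeq2 called 7 members higher and 5 lower, with 18.2% and 16.3% of all genes.

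The number and the direction of calls depended on the scaling. With library size alone, 26 members were higher and 2 lower, but so were 41.7% and 4.37% of all genes. On this scale the median difference was 1.96 over all genes and 1.76 over the members. On log2(FPKM + 1), limma called 25 members higher and 2 lower, with 50.8% and 5.98% of all genes. FPKM of the 7 microglia libraries lay above all 7 macrophage libraries for Laptm5, Man2b1, Arsb, Acp2 and Grn (5 of 36 members, 7.47% of genes) and below them for Acp5 (1 member, 2.74% of genes). TMM-scaled CPM did not overlap for Npc1, Man2b1, Naglu, Arsb and Acp2 (5 members, 7.16% of genes), which were higher in microglia, and for Laptm4a, Gm2a and Acp5 (3 members, 9.09% of genes), which were lower. Arsb, Man2b1 and Acp2 were higher and Acp5 was lower by the test and without overlap on both scales.

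**Figure D2:**
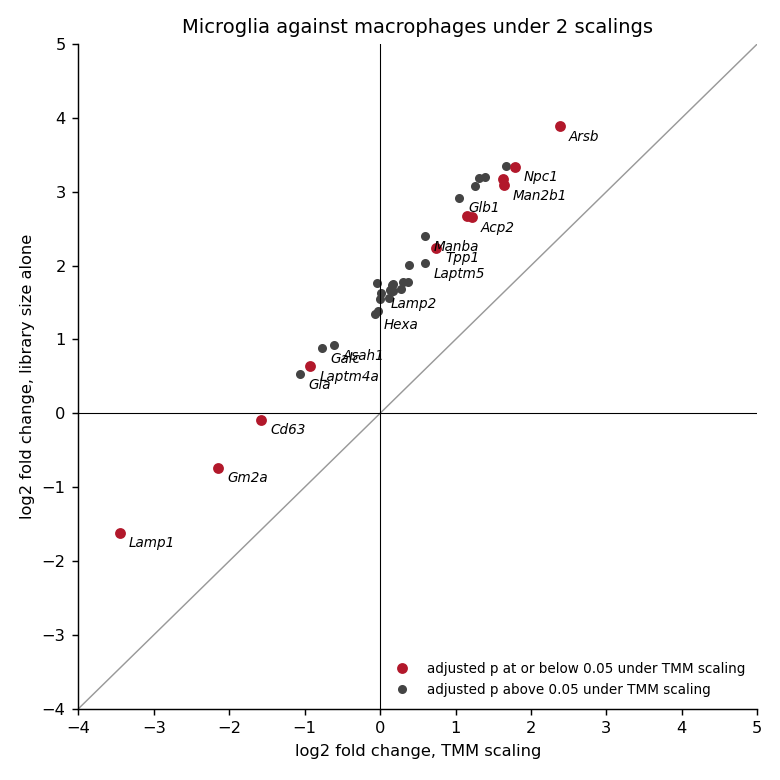
Log2 difference of microglia against macrophages for each member with TMM scaling (x axis) and with library size alone (y axis), from edgeR over 7 matched pairs; Acp5 lies outside the axes. All points lie above the diagonal, and the median of all genes moves likewise, from 0.37 to 1.96.

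Among the 8 membrane proteins, 1 was higher in microglia and 3 were lower. Npc1, which exports cholesterol from the lysosome, was the member of this group that was higher. Npc1 was between 1.59 and 9.75 FPKM (median 2.71) in the 7 macrophage libraries and between 7.42 and 45.6 FPKM (median 37.9) in the 7 microglia libraries, a log2 difference of 1.79 ± 0.24 (SE, adjusted p = 0.000312). Lamp1, an abundant glycoprotein of the lysosomal membrane, was lower. Lamp1 was between 283 and 3283 FPKM (median 1953) in the 7 macrophage libraries and between 422 and 2088 FPKM (median 526) in the 7 microglia libraries, a log2 difference of −3.45 ± 0.97 (SE, adjusted p = 0.0282). The macrophage libraries were high except for the male WT PFF library (283 FPKM), and the microglia libraries were low except for the male WT PFF library (2088 FPKM), so the groups overlapped through these 2 libraries. Cd63, a tetraspanin of late endosomes and lysosomes, was lower as well. Cd63 was between 427 and 872 FPKM (median 542) in the 7 macrophage libraries and between 371 and 714 FPKM (median 586) in the 7 microglia libraries, and the log2 difference with TMM scaling was −1.57 ± 0.41 (SE, adjusted p = 0.0191). Laptm4a, a transmembrane protein of lysosomes, was lower with TMM scaling, with a log2 difference of −0.93 ± 0.20 (SE, adjusted p = 0.00664), although its FPKM was between 47.6 and 337 FPKM (median 68.1) in macrophages and between 36.4 and 176 FPKM (median 135) in microglia. With library size alone the log2 differences were −1.62 ± 0.40 (SE, adjusted p = 0.00125) for Lamp1 and −0.09 ± 0.39 (SE, adjusted p = 0.857) for Cd63, and Laptm4a turned direction to 0.64 ± 0.52 (SE, adjusted p = 0.306).

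The other membrane proteins did not pass the test. Lamp2, the second LAMP and a receptor for chaperone-mediated autophagy, was between 25.7 and 223 FPKM (median 54.2) in macrophages and between 34.3 and 155 FPKM (median 145) in microglia, and its log2 difference was 0.01 ± 0.24 (SE, adjusted p = 0.972). Laptm5, which lowers surface antigen receptors in blood cells, was between 250.1 and 647 FPKM (median 498) in macrophages and between 1039 and 2559 FPKM (median 1883) in microglia without overlap, but its log2 difference with TMM scaling was 0.59 ± 0.42 (SE, adjusted p = 0.355). Cln3, mutated in juvenile Batten disease, had medians of 8.86 FPKM in macrophages and 39.8 FPKM in microglia. Mcoln1, the calcium channel TRPML1, had medians of 10.3 FPKM in macrophages and 33.4 FPKM in microglia. All of these values are FPKM, on which the median of all genes was shifted towards microglia.

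**Figure D3:**
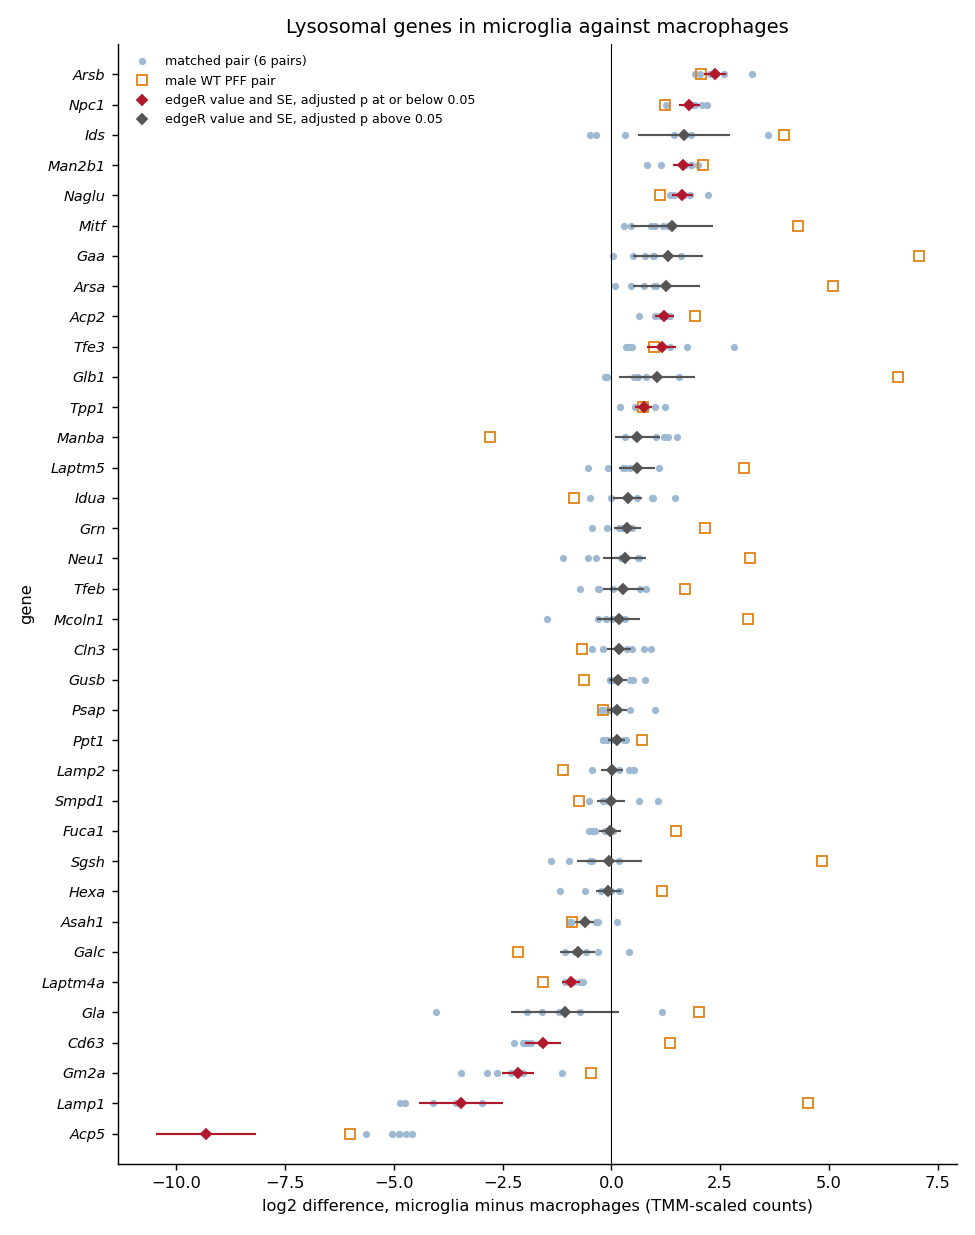
Log2 difference of TMM-scaled CPM (microglia minus macrophages, pseudocount 0.5) in each of the 7 matched pairs (small points; the male WT PFF pair is an open orange square) and the edgeR value with its SE for each member (red where the adjusted p was at or below 0.05). For Lamp1 and Cd63 the male WT PFF pair lies above 0 and the other 6 pairs lie below it.

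The values of Lamp1 and Cd63 turned on the male WT PFF pair. For Lamp1, the difference of TMM-scaled log2 CPM was between −4.86 and −2.98 in 6 pairs and 4.52 in the male WT PFF pair. For Cd63 it was between −2.24 and −1.62 in 6 pairs and 1.34 in the male WT PFF pair. In the excluded male CD163KO MONO pair the differences were 1.21 for Lamp1 and 0.64 for Cd63. Leaving out any 1 of the other 12 libraries ended both calls, with an adjusted p between 0.0687 and 0.0862 for Lamp1 and between 0.0522 and 0.0704 for Cd63. Without both male WT PFF libraries the log2 differences were −3.96 ± 0.31 (SE, adjusted p = 7.81e-07) for Lamp1 and −1.94 ± 0.16 (SE, adjusted p = 1.64e-06) for Cd63. With these libraries left out, 10 members were higher and 6 lower, with 16.5% and 19.2% of all genes. A term for the composition class was added to the fit after seeing the data. Over the 14 libraries, 6 pairs set skewed macrophages against even microglia, and the male WT PFF pair alone was the reverse. Composition and population were thus told apart by that pair alone. This fit gave 0.27 ± 0.35 (SE) for Lamp1 and −0.31 ± 0.22 (SE) for Cd63. The same fit with all 16 libraries gave −0.55 ± 0.43 (SE, adjusted p = 0.363) for Lamp1 and −0.48 ± 0.16 (SE, adjusted p = 0.0415) for Cd63, and called 10 members higher and 6 lower, with 16.8% and 10.5% of all genes.

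Lamp1 and Lamp2 did not overlap between the classes of composition, in either population, and they were not alone in this. Laptm4a was between 187 and 337 FPKM in even and between 47.6 and 105 FPKM in skewed macrophages. In microglia it was between 122 and 176 FPKM in even and between 36.4 and 68.6 FPKM in skewed libraries. Npc1, Psap and Tpp1 were also higher in even libraries of both populations without overlap, while Cd63 overlapped in both. No share of all genes is given for this split. In the even libraries Lamp1 was between 283 and 672 FPKM in macrophages and between 422 and 623 FPKM in microglia. In the skewed libraries it was between 1650.4 and 3283 FPKM in macrophages and between 795 and 2088 FPKM in microglia. Lamp2 was between 124 and 223 FPKM in the 8 even libraries and between 25.7 and 61.3 FPKM in the 8 skewed ones, without overlap. The ratio of Lamp1 to Lamp2 was between 1.27 and 125 in macrophages (median 40.7) and between 2.88 and 60.8 in microglia (median 4.03). The part of the composition in these differences was not tested.

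**Figure D4:**
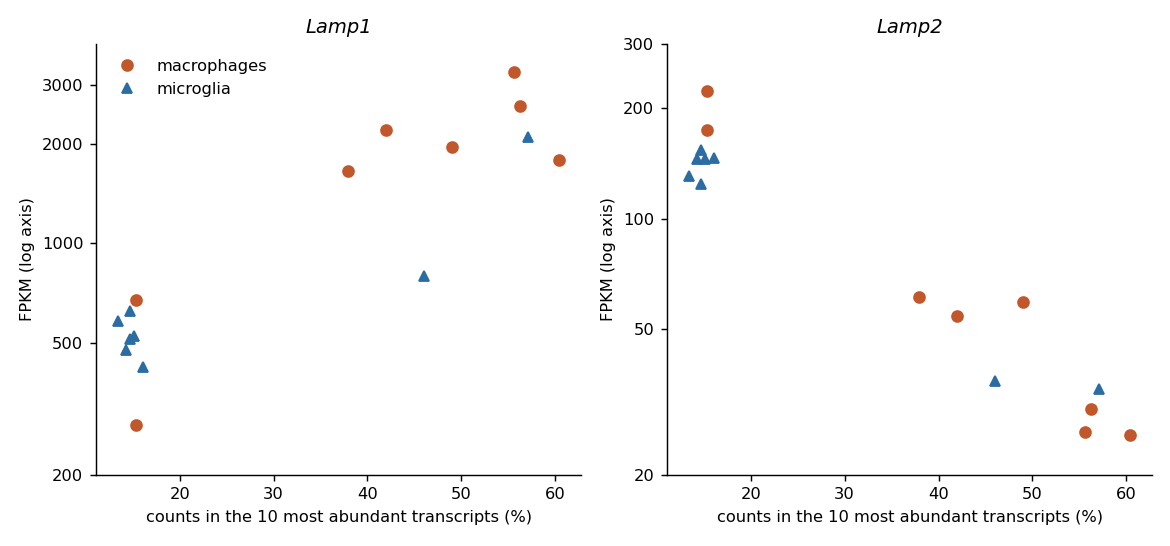
FPKM of Lamp1 and Lamp2 on a log axis against the percentage of estimated counts in the 10 most abundant transcripts, 1 point for each of the 16 libraries, coloured by population. Both genes split at the gap between even and skewed libraries, Lamp1 upward and Lamp2 downward.

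Within each class of composition, FPKM of 7 members lay above all macrophage libraries in microglia (Acp2, Arsb, Grn, Laptm5, Man2b1, Naglu and Npc1) and FPKM of Gm2a lay below them. These 2 groups compare with 8.52% and 5.88% of genes. All 16 libraries were used here, with 2 macrophage and 6 microglia libraries in the even class and 6 and 2 in the skewed class. Arsb, Man2b1, Acp2, Naglu and Npc1 were thus separated by population within even and within skewed libraries as well as by the test.

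Of the 11 glycosidases, 2 were higher in microglia and none was lower. Man2b1, the lysosomal acid α-mannosidase, was between 17.8 and 66.3 FPKM (median 27.3) in macrophages and between 91 and 308 FPKM (median 284) in microglia, so that the lowest microglia library exceeded the highest macrophage library. Its log2 difference was 1.64 ± 0.23 (SE, adjusted p = 0.00043). Naglu, which removes N-acetylglucosamine from heparan sulfate, was between 3.85 and 22.1 FPKM (median 6.33) in macrophages and between 15.5 and 103 FPKM (median 63) in microglia, a log2 difference of 1.63 ± 0.24 (SE, adjusted p = 0.000607). The lowest Naglu value of microglia and the highest of macrophages belonged to the male WT PFF pair (15.5 and 22.1 FPKM). The remaining glycosidases did not pass the test with TMM scaling. Hexa, the α-subunit of β-hexosaminidase, was the most abundant of them, with medians of 247 FPKM in macrophages and 805 FPKM in microglia, followed by Gusb, the β-glucuronidase, with 65.9 FPKM in macrophages and 225 FPKM in microglia, and Fuca1, the α-fucosidase, with 50.7 FPKM in macrophages and 151 FPKM in microglia. Gaa, which degrades lysosomal glycogen, had medians of 4.9 FPKM in macrophages and 37.4 FPKM in microglia, Glb1, the acid β-galactosidase, 6.87 FPKM in macrophages and 30.2 FPKM in microglia, and Idua, which cuts iduronic acid from glycosaminoglycans, 4.56 FPKM in macrophages and 28.2 FPKM in microglia. Neu1, a sialidase, had medians of 5.14 FPKM in macrophages and 18.3 FPKM in microglia, Manba, the β-mannosidase, 2.53 FPKM in macrophages and 14.9 FPKM in microglia, and Gla, the α-galactosidase, 1.54 FPKM in macrophages and 2.57 FPKM in microglia. Gaa and Glb1 were at 0.02 and 0 FPKM in the male WT PFF macrophages, whose library listed 9524 transcripts against 13819 to 16626 in the other 6 macrophage libraries.

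Of the 4 sulfatases, Arsb was higher in microglia and the others did not pass. Arsb, which desulfates dermatan and chondroitin sulfate, was higher by the most among the members. Arsb was between 1.68 and 8.03 FPKM (median 4.27) in the 7 macrophage libraries and between 10.9 and 71 FPKM (median 63) in the 7 microglia libraries. The groups did not overlap, and the log2 difference was 2.38 ± 0.25 (SE, adjusted p = 5.1e-05), or 5.20-fold. Arsa, which desulfates sulfatide, had medians of 1.75 FPKM in macrophages and 11.3 FPKM in microglia, Ids, the iduronate sulfatase, 0.47 FPKM in macrophages and 3 FPKM in microglia, and Sgsh, the sulfamidase of heparan sulfate, 4.05 FPKM in macrophages and 12.2 FPKM in microglia. The differences of these 3 ranged from −0.05 (Sgsh, SE 0.75) to 1.67 (Ids, SE 1.07) on the log2 scale.

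None of the 4 lipid hydrolases passed the test, at an adjusted p of 0.0761 or above. Asah1, the acid ceramidase, had medians of 95.9 FPKM in macrophages and 222 FPKM in microglia and a log2 difference of −0.61 ± 0.22 (SE, adjusted p = 0.0761) with TMM scaling. Ppt1, which removes palmitate from proteins, had medians of 71.2 FPKM in macrophages and 210.1 FPKM in microglia, Smpd1, the acid sphingomyelinase, 8.72 FPKM in macrophages and 29.6 FPKM in microglia, and Galc, which degrades galactosylceramide, 4.09 FPKM in macrophages and 6.99 FPKM in microglia. Of the 2 activators that present sphingolipids to their hydrolases, Gm2a was lower in microglia. Gm2a was between 182 and 368 FPKM (median 210.4) in the 7 macrophage libraries and between 84.8 and 238 FPKM (median 116) in the 7 microglia libraries, and the log2 difference was −2.15 ± 0.37 (SE, adjusted p = 0.00177). The highest Gm2a value was in the male WT PFF macrophages (368 FPKM) and the lowest in the male WT PFF microglia (84.8 FPKM). The groups overlapped in FPKM but not in TMM-scaled CPM, and with library size alone the log2 difference was −0.74 ± 0.38 (SE, adjusted p = 0.0974). Psap, the precursor of the saposins, had medians of 137 FPKM in macrophages and 508 FPKM in microglia and a log2 difference of 0.13 ± 0.23 (SE, adjusted p = 0.73).

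All 3 members of the group of peptidase and phosphatases passed. Tpp1, a tripeptidyl peptidase, was between 16.1 and 69.5 FPKM (median 24.8) in macrophages and between 37 and 185 FPKM (median 156) in microglia, a log2 difference of 0.75 ± 0.20 (SE, adjusted p = 0.0226), and this call was lost when a library of any pair but the female and male WT PFF pairs was left out (adjusted p between 0.0619 and 0.0916). Acp2, an acid phosphatase, was between 5.24 and 13 FPKM (median 8.92) in macrophages and between 15.9 and 78.6 FPKM (median 67.7) in microglia, a log2 difference of 1.22 ± 0.21 (SE, adjusted p = 0.00191), with no overlap. Acp5, the tartrate-resistant acid phosphatase of osteoclasts and some macrophages, was the member that was lower by the most. Acp5 was between 4.9 and 31.3 FPKM (median 6.57) in the 7 macrophage libraries and between 0 and 0.67 FPKM (median 0) in the 7 microglia libraries, and its adjusted p was 0.000179. In counts, macrophages had between 81 and 793 and 5 of the 7 microglia libraries had 0, which allows up to 3 counts. Against this limit, and per library size with no TMM scaling, Acp5 was at least 35.6-fold higher in macrophages of female CD163KO MONO mice, at least 45.5-fold in female CD163KO PFF, at least 23.7-fold in female WT MONO, at least 55.1-fold in male CD163KO PFF and at least 271-fold in male WT PFF. With TMM scaling these bounds were 156, 144, 70.1, 257 and 86.3, so that the male WT PFF pair was the highest on the first scale and not on the other. The female WT PFF microglia had 14 counts (ratio 10.4, or 61.3 with TMM) and the male WT MONO microglia 1 count. These bounds cover counting error only. The excluded male CD163KO MONO macrophages had 0 Acp5 counts.

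Grn encodes progranulin, a secreted and lysosomal protein that is cut into granulins. Grn was between 174 and 312 FPKM (median 247) in the 7 macrophage libraries and between 445 and 1083 FPKM (median 898) in the 7 microglia libraries. FPKM did not overlap, and its log2 difference with TMM scaling was 0.36 ± 0.31 (SE, adjusted p = 0.454). Without both male WT PFF libraries it was 0.09 ± 0.18 (SE, adjusted p = 0.71). With DESeq2 it was 0.44 ± 0.34 (SE, adjusted p = 0.312). Grn passed as higher in microglia in some other fits. It was at 0.96 ± 0.17 (SE, adjusted p = 0.00194) with the composition term over 16 libraries and at 1.78 ± 0.35 (SE, adjusted p = 9.35e-05) with library size alone. The composition term over 14 libraries, which rests on the male WT PFF pair, gave 1.12 ± 0.25 (SE). Of the regulators, Tfe3 was higher in microglia. Tfe3 was between 2.75 and 15.2 FPKM (median 7.18) in the 7 macrophage libraries and between 8.32 and 77.6 FPKM (median 63.2) in the 7 microglia libraries, a log2 difference of 1.15 ± 0.34 (SE, adjusted p = 0.0338), a call that was lost when a library of the female CD163KO PFF, female WT MONO, female WT PFF or male WT MONO pair was left out (adjusted p between 0.0532 and 0.117). Its lowest microglia value was again in the male WT PFF library (8.32 FPKM). Tfeb, the best known activator of lysosomal genes in this family, was between 1.15 and 7.95 FPKM (median 3.65) in macrophages and between 2.73 and 17.9 FPKM (median 13.8) in microglia, a log2 difference of 0.28 ± 0.47 (SE, adjusted p = 0.718). Mitf was between 0 and 1.09 FPKM (median 0.73) in macrophages and between 0.82 and 5.93 FPKM (median 4.84) in microglia, a log2 difference of 1.39 ± 0.94 (SE, adjusted p = 0.332). Tfe3 was the most abundant of the 3 regulators in both populations by the median, and the ranges of Tfe3 and Tfeb overlapped in both.

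In the matched pairs themselves, 10 of 36 members were higher in microglia in all 7 pairs (Npc1, Gaa, Man2b1, Naglu, Arsa, Arsb, Tpp1, Acp2, Tfe3 and Mitf), as were 15.4% of all genes, and 3 were lower in all 7 (Laptm4a, Gm2a and Acp5), as were 12.9% of all genes. With library size alone 13 members were higher (29.7% of genes) and Acp5 alone was lower (4.02% of genes).

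The lists of other lysosomal genes, 65 genes in all, gave 9 higher (6.64% of all genes) and 16 lower (11.6% of all genes) in microglia, with a median log2 difference of 0.02. With library size alone 33 were higher (41.7% of all genes) and 1 was lower (4.37%), at a median of 1.66. The counts of these lists thus depended on the scaling, as did those of all genes. The median of all genes, given above, moved the same way and lay above that of these lists on both scales. Of 17 subunits of the vacuolar ATPase, which acidifies the lysosome, 1 was higher and 5 were lower, and of 11 genes of lysosomal nutrient sensing 2 were higher and 6 lower. Of 17 other hydrolases and cofactors 4 were higher and 3 lower, of 13 other membrane proteins and transporters 1 was higher and 2 were lower, and of 7 genes of enzyme sorting and activation 1 was higher. Rptor was between 0.27 and 9.15 FPKM (median 1.02) in macrophages and between 5.01 and 38.1 FPKM (median 28.9) in microglia, a log2 difference of 2.95 ± 0.50 (SE, adjusted p = 0.0016). Rptor is the raptor subunit of mTORC1. Sort1 was between 0.63 and 4.33 FPKM (median 1.6) in macrophages and between 4.42 and 33.2 FPKM (median 27.1) in microglia, a log2 difference of 2.21 ± 0.28 (SE, adjusted p = 0.000191). Sort1 encodes sortilin, a sorting receptor that also binds progranulin. Tfec was between 0.63 and 8.58 FPKM (median 2.95) in macrophages and between 0 and 2.89 FPKM (median 0.11) in microglia, a log2 difference of −4.92 ± 1.22 (SE, adjusted p = 0.0152). Tfec is the other member of the MiT/TFE family. Hgsnat was between 16.3 and 129.6 FPKM (median 36.7) in macrophages and between 5.41 and 36 FPKM (median 27.6) in microglia, a log2 difference of −2.22 ± 0.29 (SE, adjusted p = 0.000282). Hgsnat acetylates heparan sulfate in the same degradation path as Naglu and Sgsh. Atp6v0e was between 122 and 531 FPKM (median 317) in macrophages and between 71.3 and 275 FPKM (median 242) in microglia, a log2 difference of −1.90 ± 0.25 (SE, adjusted p = 0.000298). Atp6v0e is a small subunit of the vacuolar ATPase. Hgsnat and Atp6v0e overlapped in FPKM between the populations, and with library size alone their log2 differences were −0.66 (SE 0.62, adjusted p = 0.371) and −0.49 (SE 0.50, adjusted p = 0.411).

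The response to PFF was tested within each population, over 4 PFF and 3 MONO libraries with terms for sex and genotype. In microglia, 0 of the 35 members tested passed the test with edgeR, as did 0% of 12725 genes. At an unadjusted p under 0.05, edgeR found 2 members (6.01% of all genes) and DESeq2 6 (10.6% of all genes), and DESeq2 called 0 members after adjustment. These 2 members were Gaa and Glb1, which are described because of these values. Gaa was 37.4, 31.5 and 24.8 FPKM in the female WT, female CD163KO and male WT MONO libraries, and 69.2, 47.9, 9.21 and 39.1 FPKM in the female WT, female CD163KO, male WT and male CD163KO PFF libraries. Its log2 difference was 0.88 ± 0.28 (SE, adjusted p = 0.776). Glb1 was 30.2, 28 and 30.1 FPKM in the female WT, female CD163KO and male WT MONO libraries, and 52.4, 45.8, 8.81 and 54.7 FPKM in the female WT, female CD163KO, male WT and male CD163KO PFF libraries. Its log2 difference was 0.78 ± 0.27 (SE, adjusted p = 0.776). For both, the male WT PFF library was the lowest in FPKM and the other 3 PFF libraries lay above the 3 MONO libraries. In TMM-scaled CPM each of the 3 matched pairs was higher after PFF, by 0.64 to 1.00 on the log2 scale for Gaa and by 0.46 to 0.88 for Glb1.

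Lamp1 in microglia was 584, 422 and 477 FPKM in the female WT, female CD163KO and male WT MONO libraries, and 623, 515, 2088 and 526 FPKM in the female WT, female CD163KO, male WT and male CD163KO PFF libraries, a log2 difference of 1.35 ± 1.10 (SE, adjusted p = 0.831). The male WT PFF library was far above the other 6, and without it the log2 difference was 0.30 ± 0.22 (SE, adjusted p = 0.799). Grn was 922, 709.5 and 786 FPKM in the female WT, female CD163KO and male WT MONO libraries, and 1073, 898, 445 and 1083 FPKM in the female WT, female CD163KO, male WT and male CD163KO PFF libraries, a log2 difference of 0.69 ± 0.55 (SE, adjusted p = 0.831). The differences of the other 4 genes described throughout were 0.0046 ± 0.33 (SE, adjusted p = 0.999) for Lamp2, 0.43 ± 0.38 (SE, adjusted p = 0.843) for Tfeb, 0.48 ± 0.34 (SE, adjusted p = 0.802) for Tfe3 and 0.07 ± 0.44 (SE, adjusted p = 0.99) for Mitf. The median log2 difference was 0.43 over the members and 0.13 over all genes. In 3 matched pairs, 18 of 35 members were higher after PFF in every pair and 0 were lower in every pair, against 18% and 13.9% of all genes. Among the 18 were Lamp1, Cd63, Laptm5, Npc1, Hexa, Psap and Grn. Of the members compared, 28 of 35 were higher after PFF in female WT mice, 28 of 35 in female CD163KO mice and 27 of 34 in male WT mice, against 50.7%, 51.0% and 46.4% of all genes. In the pair of the excluded male CD163KO MONO library, 19 of 35 were higher, against 53.7% of all genes. With library size alone, 2 members were higher in every pair and 4 lower (2.82% and 26.4% of all genes). The medians on this scale were −0.04 over the members and −0.38 over all genes. The count of members that were higher thus depended on the scaling, which moved all genes as well. The members' median lay above that of all genes on both scales. Summed marker levels in microglia also varied, with homeostatic markers at 43448 FPKM in the male WT PFF library and at most 21647 FPKM in the other 6, and their part in these values was not tested.

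**Figure D5:**
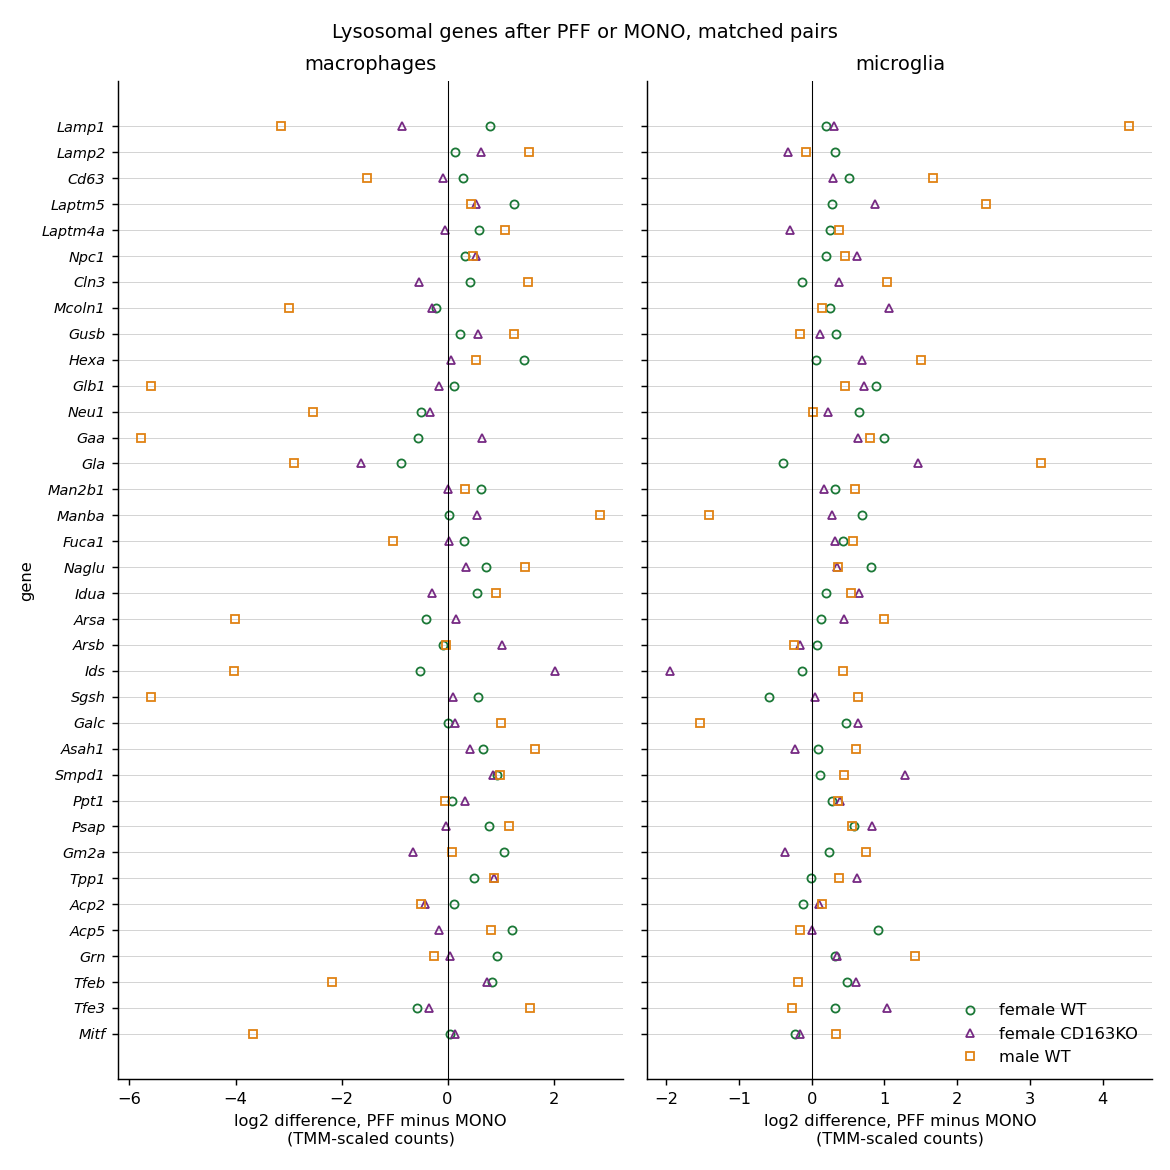
Log2 difference of TMM-scaled CPM (PFF minus MONO, pseudocount 0.5) for each member in the 3 matched pairs of each population, coloured by pair. In microglia 18 of 35 members lie above 0 in all 3 pairs, and in macrophages 12 of 34 do.

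In macrophages, 0 of 36 members passed the test of PFF against MONO with edgeR, as did 0% of 11988 genes. At an unadjusted p under 0.05, edgeR found Tpp1 and Asah1 (1.04% of all genes) and DESeq2 1 member (3.73% of all genes), and DESeq2 called 0 members after adjustment. Tpp1 was 34.7, 16.1 and 24.8 FPKM in the female WT, female CD163KO and male WT MONO libraries, and 22.9, 40.5, 69.5 and 18.3 FPKM in the female WT, female CD163KO, male WT and male CD163KO PFF libraries. Its log2 difference was 0.80 ± 0.31 (SE, adjusted p = 1). Asah1 was 95.9, 71 and 109 FPKM in the female WT, female CD163KO and male WT MONO libraries, and 70.7, 130.3, 516 and 92 FPKM in the female WT, female CD163KO, male WT and male CD163KO PFF libraries. Its log2 difference was 0.88 ± 0.37 (SE, adjusted p = 1). The male WT PFF library was the highest for both genes, and the other PFF libraries overlapped the MONO libraries. Lamp1 was 2202, 2596 and 1650.4 FPKM in the female WT, female CD163KO and male WT MONO libraries, and 1786, 1953, 283 and 3283 FPKM in the female WT, female CD163KO, male WT and male CD163KO PFF libraries, a log2 difference of 0.17 ± 0.99 (SE, adjusted p = 1). Here the male WT PFF library was the lowest, and without it the log2 difference was 0.59 ± 0.65 (SE, adjusted p = 1). The differences were 0.72 ± 0.41 (SE, adjusted p = 1) for Lamp2, 0.50 ± 0.42 (SE, adjusted p = 1) for Grn, 0.60 ± 1.14 (SE, adjusted p = 1) for Tfeb, 0.42 ± 0.81 (SE, adjusted p = 1) for Tfe3 and −0.45 ± 2.11 (SE, adjusted p = 1) for Mitf. The median log2 difference was 0.37 over the members and −0.11 over all genes. In 3 matched pairs 12 of 34 members were higher after PFF in every pair (11.4% of genes) and 3 were lower (14.7% of genes), and with library size alone 3 were higher (2.23%) and 2 lower (14.7%). Neutrophil markers summed to 118224 FPKM in the male WT MONO, 120910 in the female WT MONO and 98618 in the female CD163KO MONO macrophages. They summed to 22119 FPKM in the female WT PFF and 32857 in the female CD163KO PFF macrophages. In the male WT PFF and male CD163KO PFF macrophages they summed to 71207 and 134487 FPKM. The median of the 12 markers did not always follow the sum. It rose from 344 FPKM (MONO) to 759 FPKM (PFF) in male WT, was 124 and 113 FPKM in female CD163KO, and fell from 775 to 69 FPKM in female WT. The part of neutrophils in the values of the members was not tested.

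CD163KO and WT, and males and females, were compared over the same libraries, so that these comparisons share samples with each other and with that of treatment. No member passed in macrophages (36 tested, lowest unadjusted p = 0.156, edgeR's quasi-likelihood test) or in microglia (35 tested, lowest unadjusted p = 0.103), and 0 members passed at an unadjusted p under 0.05. Of all genes, 0.00834% passed in macrophages, all lower in CD163KO, and 0% in microglia. In macrophages the log2 differences of members lay between −0.87 and 1.25, with the largest for Lamp1, at 1.25 ± 1.00 (SE, adjusted p = 1). In microglia they lay between −1.36 and 0.40, with the lowest for Lamp1, at −1.36 ± 1.08 (SE, adjusted p = 1). Both values of Lamp1 rested on the male PFF pair, in which CD163KO minus WT was 5.22 in TMM-scaled log2 CPM in macrophages and −4.16 in microglia. The female MONO and female PFF pairs were at 0.87 and −0.80 in macrophages and at −0.38 and −0.28 in microglia. Without the male WT PFF library the log2 difference was 0.62 ± 0.65 (SE, adjusted p = 1) in macrophages and −0.26 ± 0.22 (SE, adjusted p = 1) in microglia. Grn differed by −0.05 ± 0.41 (SE, adjusted p = 1) in macrophages and by −0.41 ± 0.54 (SE, adjusted p = 1) in microglia, Lamp2 by −0.45 ± 0.42 (SE, adjusted p = 1) and −0.04 ± 0.33 (SE, adjusted p = 1), and Tfeb by −0.35 ± 1.17 (SE, adjusted p = 1) and −0.21 ± 0.37 (SE, adjusted p = 1). Tfe3 differed by 0.50 ± 0.71 (SE, adjusted p = 1) and −0.05 ± 0.33 (SE, adjusted p = 1), and Mitf by 0.81 ± 2.13 (SE, adjusted p = 1) and 0.19 ± 0.42 (SE, adjusted p = 1), in macrophages and microglia. In 3 matched pairs of macrophages 1 of 34 members was higher in CD163KO in every pair (Fuca1, 14.4% of genes) and 5 were lower (Man2b1, Naglu, Smpd1, Psap and Tpp1, 10.2% of genes). In microglia 1 of 35 was higher (Manba, 13.5% of genes) and 9 were lower (Lamp1, Laptm5, Mcoln1, Hexa, Neu1, Gaa, Naglu, Acp2 and Grn, 10.2% of genes). With library size alone 1 member was higher and 4 lower in macrophages (6.97% and 5.77% of genes), and 7 were higher and 1 lower in microglia (26.8% and 0.893% of genes). The direction in microglia thus turned with the scaling. The shares of all genes moved the same way, so the turn was not particular to the members.

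In the comparison of males with females, 0 members passed in macrophages (lowest unadjusted p = 0.0845, edgeR) or in microglia (lowest unadjusted p = 0.0807), as did 0% of genes in both. The comparison of sexes holds the male WT PFF library on its male side in both populations, and in microglia the library with reads of Y-linked genes on its female side. Without that female CD163KO MONO microglia library, 0 of 35 members passed in the comparisons of treatment, genotype and sex, as did 0%, 0% and 0.0239% of genes, with a lowest unadjusted p of 0.0272, 0.0657 and 0.103. In this fit the PFF difference was 0.96 ± 0.37 (SE, adjusted p = 0.92) for Gaa, 0.73 ± 0.37 (SE, adjusted p = 0.92) for Glb1, 2.83 ± 1.39 (SE, adjusted p = 0.92) for Lamp1 and 0.92 ± 0.79 (SE, adjusted p = 0.925) for Grn, and the genotype difference was −2.83 ± 1.37 (SE, adjusted p = 1) for Lamp1. In the comparison of populations 9 members passed without it, as did 11.5% of genes. The interaction in microglia cannot be fitted without it, since it is the CD163KO MONO library there, and rests on a library whose sex label is in doubt. Whether the response to PFF differed between genotypes was tested with an interaction term. In macrophages 0 of 36 members passed (lowest unadjusted p = 0.208, edgeR), as did 0% of genes, and in microglia 0 of 36 passed (lowest unadjusted p = 0.063), as did 0.0211% of genes, all lower. The interaction for Grn was 0.14 ± 1.11 (SE, adjusted p = 1) in macrophages and −0.61 ± 1.31 (SE, adjusted p = 1) in microglia, and for Lamp1 1.17 ± 2.91 (SE, adjusted p = 1) and −2.95 ± 1.70 (SE, adjusted p = 1). DESeq2 called 0 members in each of the tests of genotype, of sex and of the interaction, and found at most 1 at an unadjusted p under 0.05. Both interaction counts rested on 1 library. Without the female WT PFF macrophages, which left the male WT PFF library as the lone WT PFF library of macrophages, 9 members passed (Arsa, Gaa, Glb1, Ids, Mcoln1, Mitf, Neu1, Sgsh and Tfeb), as did 26.3% of the 12820 genes tested. Without the female WT PFF microglia, Lamp1 passed at −3.99 ± 0.75 (SE, adjusted p = 1.4e-05), as did 1.66% of the 13831 genes tested. None of the 65 other lysosomal genes passed in any comparison of treatment, genotype or sex or in the interactions.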

How the data were processed

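RNA of macrophages and microglia sorted from mouse brains was sequenced after SMART-seq2 amplification, which does not keep the strand, so reads of overlapping genes on opposite strands cannot be told apart. According to the methods, filtered reads went through Bowtie2 and RSEM, and the submitters' processing notes name mm10 and DESeq2. The deposited tables hold, per RefSeq transcript, an estimated count made by the authors with RSEM and not normalized. They also hold FPKM made by the authors with RSEM, scaled to transcript length and library size. Unlisted transcripts were taken as 0. Batches are not given per sample in the labels, and the study's batch correction and removal of outliers were not repeated here.

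Transcripts were summed to gene symbols from RefSeq (GRCm38.p6). A symbol was found for 27632 of 27787 transcripts (99.4%), and the others took at most 0.128% of a library's counts. Estimated counts were rounded and tested with edgeR 4.0.16 (TMM, filterByExpr, quasi-likelihood test, R 4.3.3), with Benjamini-Hochberg adjustment over all genes tested. Populations were compared with the condition as a block over 7 matched pairs, and treatment, genotype and sex in 1 fit per population, with the interaction of genotype and treatment in another (9 comparisons in all). Each SE was taken from the log2 difference and the F statistic. Differences in matched pairs are of TMM-scaled CPM with a pseudocount of 0.5. The fits were also run on simulated counts, and no result given here rests on that run.

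The members and the lists of other lysosomal genes were chosen with earlier results of these data known. All 36 members are named, with full values for the 5 that were higher and the 5 that were lower by the most among those passing in the comparison of populations, and for Lamp1, Lamp2, Grn, Tfeb, Tfe3 and Mitf. Of the other lysosomal genes, the 3 that were higher and the 3 that were lower by the most are named, except for a gene that is not reported here. Gaa, Glb1, Tpp1 and Asah1 in the response to PFF and the Lamp1 to Lamp2 ratio were chosen after their values were seen. The alternatives were DESeq2 1.42.0, library size alone, other filters, limma 3.58.1 on log2(FPKM + 1) and log2(FPKM + 0.1), no block, females alone, the excluded libraries added and each library left out. Tables and figures were made with Python 3.11.15, pandas 2.3.3, numpy 2.4.6 and matplotlib 3.10.9.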

Additional observations from a re-analysis of the deposited data

Results flagged for a closer look

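Members with a single library far from the others of its population were found by Dixon's ratio, the gap between the extreme library and its nearest neighbour divided by the whole range of the 7 libraries. A ratio above the 95% critical value for 7 samples arises by chance in about 1 in 20 groups. The rule was applied to 34 sets of values that covered 16 genes, and not to every member. Of these sets 18 passed, and 17 of these concerned a male WT PFF library. No share of all genes stands beside this count, so it is not a rate over the members or a result particular to them. In the male WT PFF macrophages these were Lamp1 (0.719) and Naglu (0.590) besides Gm2a (0.644), Lamp2 (0.602) and Laptm4a (0.597). In the male WT PFF microglia the membrane proteins Lamp1 (0.757), Lamp2 (0.854), Laptm4a (0.765) and Npc1 (0.667) passed, and so did the enzymes Acp2 (0.827), Arsb (0.805), Man2b1 (0.816), Naglu (0.649) and Tpp1 (0.739) and the regulators Mitf (0.595), Tfe3 (0.672) and Tfeb (0.594). Lamp1 was the highest in this microglia library and the others named were the lowest there. Acp5 in microglia passed through the female WT PFF library (0.832), with 14 counts against at most 1 in the other 6. The male WT PFF microglia library had the share of its 10 most abundant transcripts between 45.99% and 57.15%, as had the excluded male CD163KO MONO microglia library. The part of the composition in these values was not tested.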

How the results depend on the processing

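Over the comparison of populations, 12 members passed (18.2% of all genes). This count was 28 with library size alone (46% of all genes), 27 with limma on log2(FPKM + 1) (56.8%), 27 with limma on log2(FPKM + 0.1) (56.7%), 22 with limma and no filter (29.2%), 34 with limma without both male WT PFF libraries (80.5%) and 24 with a term for the composition class (39.2%). The last of these and the fits without both male WT PFF libraries were chosen after seeing the data. The cause was not tested, but library size and FPKM also moved the median of all genes towards microglia. Leaving out 1 library, which also takes its partner out of the block, gave between 8 and 16 members (11.5% to 32.2% of all genes). Lamp1 reversed to 0.27 with the composition term over 14 libraries but was at −0.55 with it over 16, and Laptm4a reversed to 0.64 with library size alone, to 0.45, 0.46 and 0.45 with limma on log2(FPKM + 1), on log2(FPKM + 0.1) and without a filter, and to 1.06 with limma without both male WT PFF libraries. Of the other values of single members, 271 kept direction and call and 59 kept direction and lost the call. In the interaction, leaving out 1 library gave between 0 and 9 members in macrophages (26.3% of all genes at 9) and between 0 and 1 in microglia (1.66% at 1), and the fit could not be made without a female CD163KO MONO library. The other comparisons within populations gave 0 members under each library left out. No paired analysis by replicate number was possible because each condition has a single table; the matched condition is the block of the comparison of populations. Depth was between 8648751 and 21433841 counts per table.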

Other observations

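The male CD163KO MONO libraries, which were left out of the main tests, had the composition of the male WT PFF libraries in both populations. Lamp1 was at 672 FPKM in their macrophages and 795 FPKM in their microglia, and Lamp1 was 3.84 times Lamp2 in macrophages and 22.0 times Lamp2 in microglia. With Lamp1 among them, members summed to 0.941% of FPKM in these macrophages and 0.706% in these microglia, the reverse of the order in the 7 tested pairs. Cst3, which encodes cystatin C, an inhibitor of lysosomal cathepsins, was the most abundant gene of every microglia library. In the skewed microglia libraries it was at 261156 FPKM (male WT PFF) and 237697 FPKM (male CD163KO MONO), against 60306 to 73243 FPKM in the other 6.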
